A study of Homo sapiens with 6 samples.

Results

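The genes described here are 32 genes of cholesterol and fatty acid synthesis, found once each among the 60708 genes of the deposited count table. Each was chosen by name for its place in these pathways, with earlier results of these data known, like the lists used below. They were read by RNA-seq in Caki-1 cells, an established cell line from a human clear cell renal carcinoma, in 3 samples of VC cells and 3 samples of VHL-KO cells. VC cells carry wild-type VHL and had been infected with the lentiviral CRISPR vector alone. VHL-KO cells had been infected with a lentivirus carrying Cas9 and a guide RNA to VHL, selected with puromycin and cloned in 96-well plates, with loss of the protein read by immunoblot. The cells are therefore clonal, and loss of VHL cannot be told apart from other differences between the chosen clone or clones and the VC cells. The sources used here do not say which clone or clones were sequenced or whether the 3 samples of a group came from separate cultures, so p-values measure only the spread between these samples, which may be technical. The VC samples held 31789923, 28463579 and 34881739 counts and the VHL-KO samples 29139722, 22805385 and 22628246 counts.

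Cholesterol is built from acetyl-CoA by way of mevalonate, the isoprenoid diphosphates, squalene and lanosterol, while fatty acids are built from acetyl-CoA by way of malonyl-CoA. Both routes are under the control of the SREBP transcription factors, which the escort protein SCAP carries from the endoplasmic reticulum to the Golgi for cleavage, and which INSIG proteins hold back when sterols are plentiful. Clear cell renal carcinoma is known for lipid droplets filled with cholesteryl esters and triglycerides, and for loss of VHL, whose product recognizes HIFα proteins for ubiquitination and breakdown.

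VHL was read at 42.6, 37.8 and 40.1 CPM (counts per 1e6 counts of the library, after scaling by TMM factors) in the VC samples and at 34.8, 30.5 and 30.5 CPM in the VHL-KO samples. The groups did not overlap, and the log2 fold change was -0.33 (SE 0.11, adjusted p = 0.0109, by the quasi-likelihood test of edgeR, Benjamini-Hochberg over all genes tested, like each edgeR adjusted p that follows). The call on VHL was lost without VC replicate 1 (edgeR adjusted p = 0.0862), without VHL-KO replicate 2 (edgeR adjusted p = 0.0621) and with upper quartile factors (edgeR adjusted p = 0.0905), within a range from 0.000293 to 0.0905 over the alternatives without a replicate block. Of the exonic bases of VHL, 23.5% lie in another gene on the opposite strand. Of 12 HIF target genes, 11 rose and 1 fell, beside 28.5% higher and 31.2% lower of all genes tested, with a median log2 fold change of 1.32, which was also 1.32 with CA9 at its lower bound. Their summed level was 2885, 2893 and 3043 CPM in VC and 7831, 7812 and 7750 CPM in VHL-KO samples. CA9, a carbonic anhydrase, had at most 2 counts in a VC sample and rose at least 124-fold when VC is set to 3 counts per sample. NDRG1 rose by a log2 fold change of 6.03, ADM, which encodes adrenomedullin, by 3.55, and the angiogenic ligand VEGFA by 2.48. ANKRD37 rose by 1.96, LDHA by 1.41, BNIP3 by 1.23 and PDK1 by 1.10, all on the same scale. Another gene on the opposite strand holds 40.35% of the exonic bases of ANKRD37 and 35.73% of those of CA9. EGLN3, a HIF prolyl hydroxylase, fell instead, from a mean of 1.72 to 0.731 CPM (log2 fold change -1.26, SE 0.35, edgeR adjusted p = 0.00337).

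The renal transcription factor PAX8 (428 CPM on average in VC, 614 CPM in VHL-KO cells) was read in every sample, whereas PAX2 was at 0 in all of them and CDH1 did not reach 10 reads in any. The 11 kidney epithelial markers, of which KRT8 was the most abundant, summed to 1714, 1927 and 1562 CPM in VC and 2390, 2313 and 2325 CPM in VHL-KO samples. Of 9 tested, 5 rose and 2 fell, or 4 and 3 with offsets that remove the trend of each library with GC content and length of genes. Among the 17401 genes tested, 28.5% rose and 31.2% fell, or 4949 and 5518 genes with these offsets. The 5 leukocyte markers summed to between 1.37 and 1.78 CPM in VC and between 3.89 and 5.33 CPM in VHL-KO samples, nearly all of it CD14, with CD3E at 0. The 4 endothelial markers, mostly PECAM1 in VHL-KO samples, stayed at or under 0.711 CPM in sum. The 6 fibroblast markers summed to 35.1, 36.5 and 29.5 CPM in VC and 27.9, 24.8 and 22.9 CPM in VHL-KO samples, nearly all of it COL1A1, with COL3A1 and LUM at 0. In bulk RNA, fewer cells of a type and less RNA per cell cannot be told apart.

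VHL-KO cells held fewer reads of many genes of the module. The fatty acid enzymes FASN and ACLY and the sterol enzymes CYP51A1, SQLE, HMGCS1 and ACAT2 fell at least 2-fold. With the GC and length offsets HMGCS1 fell less than 2-fold (log2 fold change -0.80). The level of CYP51A1 is uncertain, because its exons are largely shared with other genes. TM7SF2, a sterol reductase, and INSIG2, a brake on SREBP transport, rose at least 2-fold. All 32 genes had at least 10 reads in some sample and were tested. Of them 16 fell, 7 rose and 9 did not pass an adjusted p of 0.05. The shares were 50% lower and 21.9% higher, beside 31.2% lower and 28.5% higher among the 17401 genes tested, of which 59.7% passed in either direction. At least 2-fold changes were seen in 6 genes downward (18.8%, beside 12.3% of all genes) and 2 genes upward (6.25%, beside 13.9%), 8 of 32 in all beside 26.2% of all genes. The median log2 fold change was -0.24 for the 32 genes and -0.01 for all genes tested. The groups did not overlap for 24 of the 32 genes, beside 64.7% of all genes. These shares describe the list, and no test set it apart from other genes. The share of called genes that rose was 47.7% over all genes, 35.8% when only library size was used and 55% with upper quartile factors, which put the median of all genes at -0.20 and 0.10. For the 32 genes these scalings gave 5 higher and 18 lower, and 8 higher and 15 lower.

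**Figure D1:**
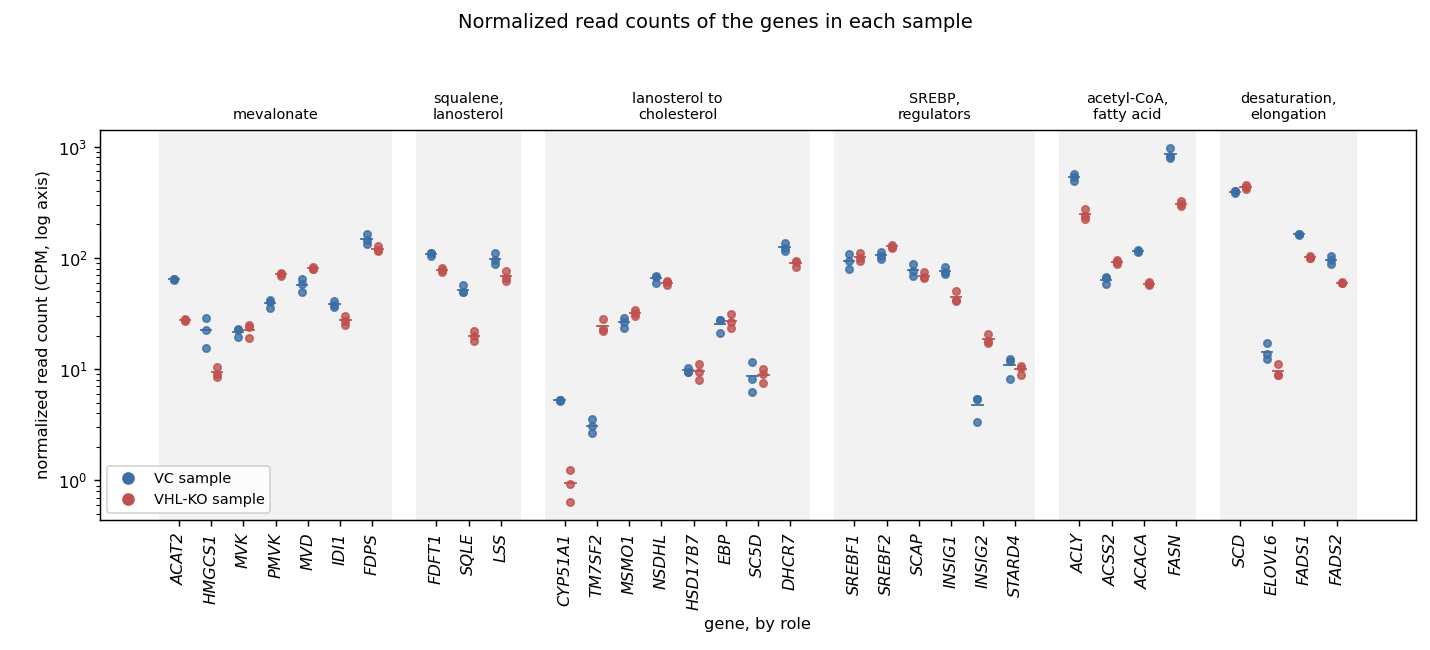
Normalized read counts (CPM, log axis) of the 32 genes in the 3 VC and 3 VHL-KO samples, arranged by role, where each point is a sample and each line a group mean. FASN falls from the highest level of all, a mean of 864 CPM, to 306 CPM, while TM7SF2 climbs from 3.11 to 24.3 CPM.

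Per kilobase of exon, ACLY led the VC cells with 102 CPM, followed by FASN with 92.7 and SCD, the stearoyl-CoA desaturase, with 75.0. In VHL-KO cells SCD led with 83.0 CPM per kilobase, followed by PMVK with 71.5, ACLY with 47.2 and FASN with 32.8. The lowest levels in VC cells were those of SC5D (0.865 CPM per kilobase), TM7SF2 (0.912), INSIG2 (1.20) and CYP51A1 (1.25). TM7SF2 moved from rank 31 to rank 20 and INSIG2 from rank 30 to rank 23, while CYP51A1, whose level is uncertain because its exons are largely shared with other genes, moved from rank 29 to rank 32. The median coefficient of variation between replicates over the 32 genes was 9.16% for VC samples and 7.97% for VHL-KO samples. The highest values in VC samples were 31.4% for SC5D, 30.6% for HMGCS1 and 25.1% for INSIG2. In VHL-KO samples the highest was 32.6%, for CYP51A1.

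Of the 7 genes of the mevalonate steps, 4 fell, 2 rose and 1 did not pass the test. Among all genes tested, 31.2% fell and 28.5% rose. ACAT2 (ENSG00000120437.9, chr6:159762045-159779112 of GRCh38) encodes the cytosolic thiolase that joins acetyl-CoA units at the head of the route. It was read at 63.2, 65.2 and 64.4 CPM in VC and at 27.0, 28.4 and 27.6 CPM in VHL-KO samples. The groups stood far apart and their replicates lay within a few CPM of each other (log2 fold change -1.22, SE 0.10, edgeR adjusted p = 2.17e-10). HMGCS1 (ENSG00000112972.15, chr5:43287470-43313512) makes HMG-CoA in the next step and was read at 22.6, 15.4 and 29.0 CPM in VC and at 9.13, 8.44 and 10.6 CPM in VHL-KO samples. The VC samples varied more than the VHL-KO samples, but all of them were higher (log2 fold change -1.26, SE 0.18, edgeR adjusted p = 1.24e-06). The exons of both genes are shared with others on the opposite strand, 22.2% of the bases of ACAT2 and 37.7% of those of HMGCS1, and the sources used here do not say whether reads were counted by strand.

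Later mevalonate enzymes moved less and in both directions. IDI1, the isomerase that makes dimethylallyl diphosphate, fell from a mean of 38.2 to 27.4 CPM, and FDPS, the farnesyl diphosphate synthase, from 147 to 119 CPM (log2 fold changes -0.48 and -0.30). The fall of FDPS was not called with upper quartile factors (edgeR adjusted p = 0.101) or without VHL-KO replicate 2 (edgeR adjusted p = 0.0561), and this p ran between 1.17e-06 and 0.101 over all alternatives without a replicate block. PMVK, the phosphomevalonate kinase, rose from 39.1 ± 3.35 to 71.6 ± 2.22 CPM (mean ± SD, n = 3 each, log2 fold change 0.87, SE 0.10, edgeR adjusted p = 6e-08). MVD, the decarboxylase of the next step, rose from 57.3 ± 7.76 to 80.8 ± 1.85 CPM (log2 fold change 0.50). With the GC and length offsets PMVK was at 0.23, and the calls on MVD (0.13, edgeR adjusted p = 0.0971) and IDI1 (-0.19, edgeR adjusted p = 0.0512) were lost. MVK, the kinase before PMVK, did not pass the test, at means of 21.7 and 22.7 CPM. Because of these opposite shifts the summed level of the 7 genes, 390, 409 and 372 CPM in VC, was still 369, 360 and 347 CPM in VHL-KO samples.

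All 3 genes from farnesyl diphosphate to lanosterol fell, beside 31.2% of all genes tested. SQLE (ENSG00000104549.12), the squalene epoxidase and a rate-limiting enzyme of the route, was read at 49.4, 49.1 and 57.3 CPM in VC and at 19.8, 17.8 and 22.1 CPM in VHL-KO samples. Every VHL-KO sample lay well under every VC sample (log2 fold change -1.38, SE 0.12, edgeR adjusted p = 2.87e-10). FDFT1, which makes squalene, fell from a mean of 108 to 78.4 CPM, and LSS, which closes the lanosterol ring, from 98.7 to 68.2 CPM (log2 fold changes -0.46 and -0.53). The summed level of the 3 genes was 255, 271 and 250 CPM in VC and 168, 156 and 177 CPM in VHL-KO samples.

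The 8 genes that turn lanosterol into cholesterol went both ways, with 2 falling, 2 rising and 4 not passing the test. These counts stand beside 31.2% lower and 28.5% higher of all genes tested. CYP51A1 (ENSG00000001630.17, chr7:92084987-92134803), the lanosterol demethylase, had 181, 153 and 199 reads in the VC samples, against 17, 27 and 20 reads in those of VHL-KO cells. This was 5.30, 5.15 and 5.24 CPM against 0.636, 1.25 and 0.938 CPM, and the groups did not overlap (log2 fold change -2.49, SE 0.25, edgeR adjusted p = 5.46e-09). Of the exonic bases of CYP51A1, 74.1% lie in other annotated genes and 68.2% in genes on its own strand, so the counts may cover only a part of its transcripts, and its level is uncertain. TM7SF2 (ENSG00000149809.17, chr11:65111845-65116384), a reductase of the sterol C14 double bond that acts just after CYP51A1, had 123, 91 and 101 reads in the VC samples, against 753, 494 and 467 reads in those of VHL-KO cells. At 3.60, 3.06 and 2.66 CPM against 28.2, 22.9 and 21.9 CPM it rose 7.84-fold, the largest change among the 32 genes in the fit with TMM factors (log2 fold change 2.97, SE 0.16, edgeR adjusted p = 1.5e-13).

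The same step can be carried out by LBR, the lamin B receptor, which is not among the 32 genes and was chosen after its values were seen. LBR was read at 44.6, 43.3 and 59.3 CPM in VC and at 10.6, 15.2 and 12.4 CPM in VHL-KO samples (log2 fold change -1.95, SE 0.14, edgeR adjusted p = 2.56e-11). Per kilobase, the ratio of TM7SF2 to LBR within a sample was 0.135, 0.118 and 0.0751 in the VC samples, against 4.46, 2.53 and 2.95 in those of VHL-KO cells. LBR reads thus prevailed in each VC sample and TM7SF2 reads in each VHL-KO sample. With the GC and length offsets both moved less, TM7SF2 by 2.55 and LBR by -1.62, so the ratio depends in part on that trend.

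Of the other genes of these steps, DHCR7, the reductase that ends the route, fell from a mean of 125 to 89.3 CPM (log2 fold change -0.48, SE 0.10, edgeR adjusted p = 0.000132). MSMO1, the sterol C4 methyl oxidase, rose from a mean of 26.3 CPM in VC cells, with no overlap between the groups (log2 fold change 0.28, SE 0.12, edgeR adjusted p = 0.0397). This call was lost with library size alone, without a filter and in 4 of the 6 fits that leave out a sample, those without VC replicates 1 (edgeR adjusted p = 0.0941) and 2 (0.0844) and VHL-KO replicates 1 (0.142) and 3 (0.0767). NSDHL, HSD17B7, EBP and SC5D, which act in C4 demethylation, isomerization and desaturation, had log2 fold changes between -0.12 and 0.09 and did not pass the test, although NSDHL did with library size alone (-0.32, edgeR adjusted p = 0.00646). With the GC and length offsets NSDHL was called lower (-0.29, edgeR adjusted p = 0.000925), while SC5D (0.48, edgeR adjusted p = 0.00547) and HSD17B7, whose direction turned (0.37, edgeR adjusted p = 0.0219), were called higher. EBP shares 36.4% of its exonic bases with another gene on its strand.

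**Figure D2:**
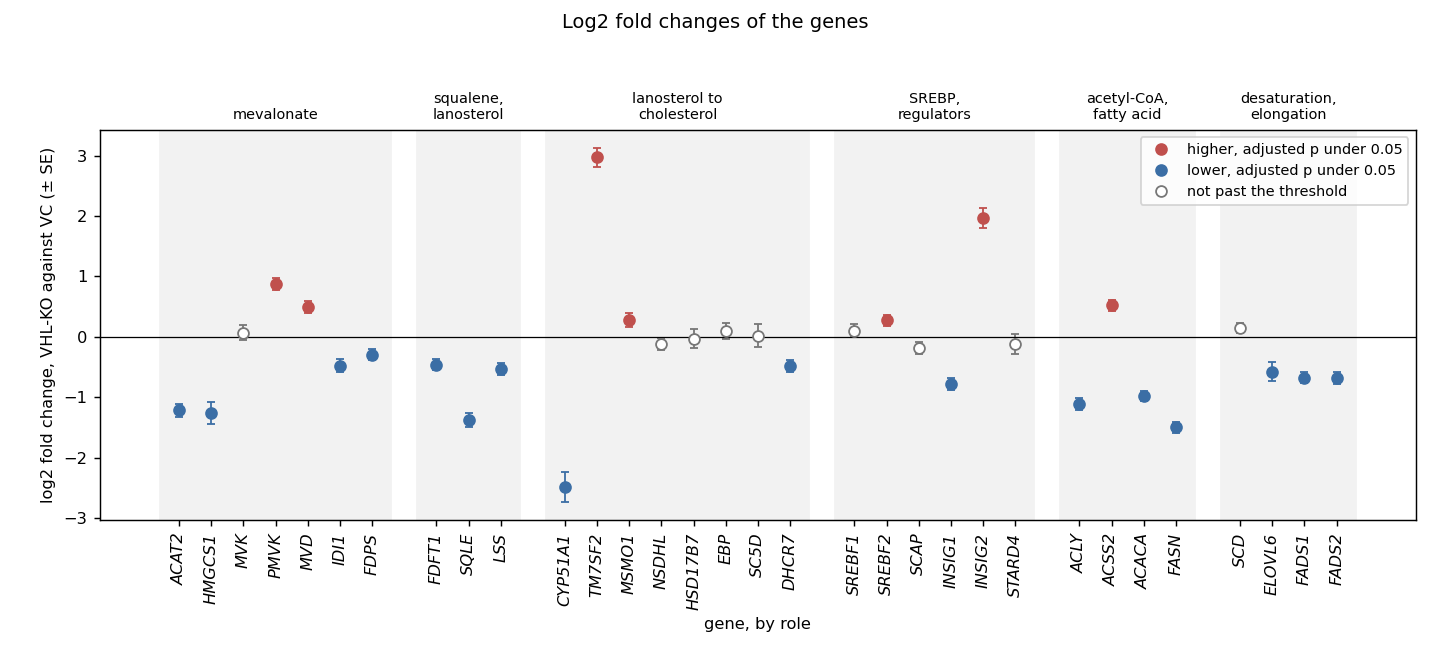
Log2 fold changes (± SE) of the 32 genes in VHL-KO against VC cells, arranged by role, with filled points for genes past an adjusted p of 0.05 and open points for the rest. Falls outnumber rises in the fatty acid and squalene groups, while TM7SF2 at 2.97 and INSIG2 at 1.97 stand above all others.

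Among the regulators, the SREBP genes themselves moved little and the INSIG genes moved in opposite directions. SREBF1, whose SREBP-1 products act mainly on fatty acid genes, was read at 93.7, 109 and 79.8 CPM in VC and at 98.8, 93.3 and 111 CPM in VHL-KO samples. The groups overlapped and the log2 fold change of 0.10 did not pass the test (SE 0.11, edgeR adjusted p = 0.419), although it was called higher without VC replicate 2 (0.24, edgeR adjusted p = 0.0216) and lower with the GC and length offsets (-0.25, edgeR adjusted p = 0.00352). SREBF2, whose product acts mainly on sterol genes, was read at 105, 114 and 97.7 CPM in VC and at 123, 127 and 131 CPM in VHL-KO samples. All VHL-KO samples were higher, by a small margin (log2 fold change 0.27, SE 0.09, edgeR adjusted p = 0.0136). Without VC replicate 1 the edgeR adjusted p of SREBF2 was 0.0565, with library size alone it was 0.427, and it peaked at 0.531 with the GC and length offsets among alternatives without a replicate block. SCAP was read at 76.1, 88.4 and 69.0 CPM in VC and at 66.8, 65.4 and 74.4 CPM in VHL-KO samples. Its groups overlapped and its log2 fold change of -0.18 did not pass the test (SE 0.10, edgeR adjusted p = 0.146), although it did without VC replicate 3 (-0.24, edgeR adjusted p = 0.0404), with library size alone (-0.37, edgeR adjusted p = 0.00341) and with the GC and length offsets (-0.45, edgeR adjusted p = 4.56e-06).

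INSIG1, itself a target of SREBPs, was read at 74.1, 72.2 and 82.2 CPM in VC and at 50.4, 42.1 and 40.6 CPM in VHL-KO samples. It fell without overlap between the groups (log2 fold change -0.78, SE 0.10, edgeR adjusted p = 6.97e-07). INSIG2 (ENSG00000125629.15, chr2:118088452-118110997), which does not need SREBPs for its expression, was read at 5.45, 3.37 and 5.40 CPM in VC and at 17.9, 17.2 and 20.9 CPM in VHL-KO samples. It rose 3.92-fold (log2 fold change 1.97, SE 0.17, edgeR adjusted p = 6e-10). Per kilobase, INSIG2 reads amounted to 0.0680, 0.0431 and 0.0607 of INSIG1 reads in the VC samples and to 0.329, 0.378 and 0.475 of them in the VHL-KO samples. INSIG1 thus remained the more abundant of the pair in each sample, by a smaller margin in VHL-KO cells. STARD4, a sterol carrier, did not pass the test, at means of 10.8 and 9.94 CPM, but was called higher with the GC and length offsets (0.31, edgeR adjusted p = 0.0298).

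**Figure D3:**
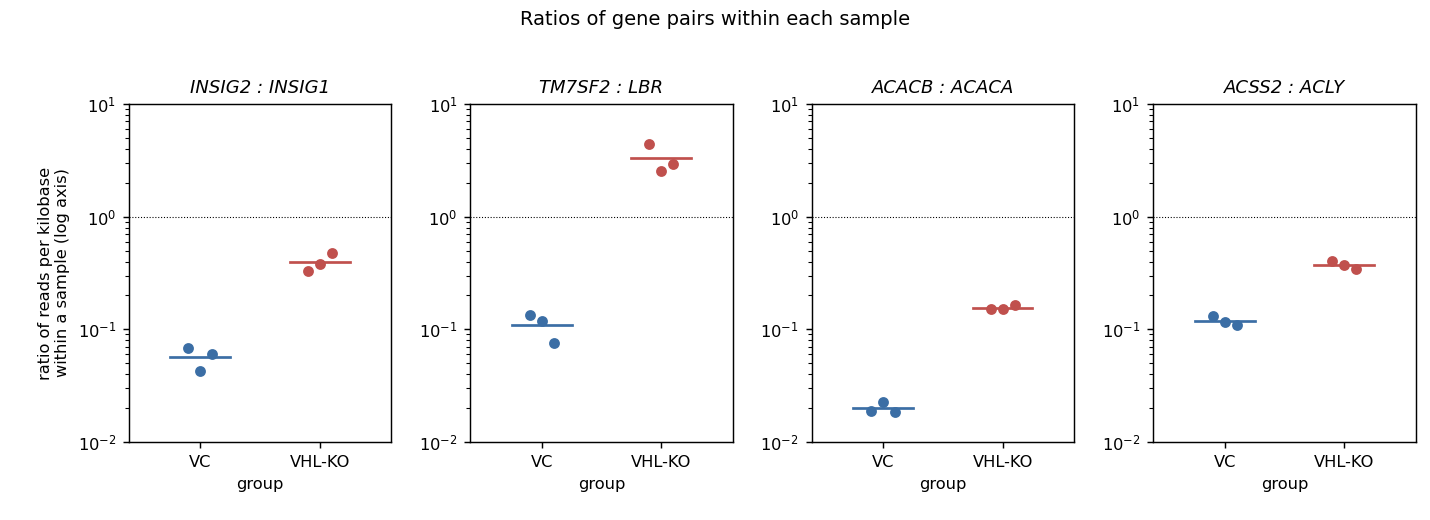
Ratio of reads per kilobase of exon (log axis) within each of the 3 VC and 3 VHL-KO samples for the pairs INSIG2 and INSIG1, TM7SF2 and LBR, ACACB and ACACA, and ACSS2 and ACLY, with a line at each group mean and a dotted line at a ratio of 1. Each ratio is higher in every VHL-KO sample than in any VC sample, and that of TM7SF2 to LBR crosses 1, from a mean of 0.110 to 3.31.

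The 5′ sequences of the strongest movers are shown to let their promoters be read beside these values. A RefSeq table (GRCh38.p14) gave 300 bases, 250 before and 50 after each listed start, for 28 of the 32 genes in 39 promoters, and it had none for ACAT2, FASN, FDFT1 and SQLE. Both strands were searched for TCACNCCAC, a form of the sterol regulatory element, for CCAAT and GGGCGG, the boxes bound by NF-Y and Sp1, and for ACGTG or GCGTG, the core of the hypoxia response element. Matches to ACGTG on both strands can overlap. For genes with 2 listed starts the upstream promoter is given. Capitals mark every match. The promoters are those of TM7SF2 (chr11:65111622-65111921, plus strand), CYP51A1 (chr7:92134428-92134727, minus strand), INSIG2 (chr2:118088221-118088520, plus strand) and HMGCS1 (chr5:43313363-43313662, minus strand), each read 5′ to 3′ along its gene.
TM7SF2: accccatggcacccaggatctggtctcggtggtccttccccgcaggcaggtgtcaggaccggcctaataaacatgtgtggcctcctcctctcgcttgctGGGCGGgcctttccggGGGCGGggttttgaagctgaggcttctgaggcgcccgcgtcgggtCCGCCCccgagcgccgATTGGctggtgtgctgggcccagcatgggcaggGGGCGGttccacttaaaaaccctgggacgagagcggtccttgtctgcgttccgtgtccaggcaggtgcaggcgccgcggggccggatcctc
CYP51A1: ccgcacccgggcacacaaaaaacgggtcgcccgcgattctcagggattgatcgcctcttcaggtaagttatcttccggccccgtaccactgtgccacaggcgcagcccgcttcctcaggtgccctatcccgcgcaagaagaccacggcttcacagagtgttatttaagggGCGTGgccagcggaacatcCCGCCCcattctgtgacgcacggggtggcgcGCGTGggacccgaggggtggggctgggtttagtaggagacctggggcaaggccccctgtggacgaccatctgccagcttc
INSIG2: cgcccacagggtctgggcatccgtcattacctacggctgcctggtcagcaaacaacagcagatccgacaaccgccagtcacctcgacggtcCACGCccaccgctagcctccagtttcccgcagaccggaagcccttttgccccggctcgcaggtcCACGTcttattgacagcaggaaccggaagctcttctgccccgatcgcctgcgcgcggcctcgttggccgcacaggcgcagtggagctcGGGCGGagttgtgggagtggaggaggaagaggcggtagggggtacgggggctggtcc
HMGCS1: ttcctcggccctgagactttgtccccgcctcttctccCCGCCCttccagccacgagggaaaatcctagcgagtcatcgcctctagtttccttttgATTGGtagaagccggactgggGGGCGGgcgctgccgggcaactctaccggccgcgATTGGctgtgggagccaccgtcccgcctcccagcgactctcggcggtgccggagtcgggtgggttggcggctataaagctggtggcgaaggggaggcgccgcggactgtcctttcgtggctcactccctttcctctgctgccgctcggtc

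The TM7SF2 promoter held 4 GGGCGG matches and 1 CCAAT match, and none to the hypoxia core. That of CYP51A1 held 1 GGGCGG and 2 GCGTG matches, that of INSIG2 held 1 GGGCGG match, 1 ACGTG match and 1 GCGTG match, and that of HMGCS1 held 2 GGGCGG and 2 CCAAT matches. The promoter at the other listed start of HMGCS1 held 2 GGGCGG and 2 GCGTG matches and no CCAAT, and that of INSIG2 held 1 GGGCGG match, 2 ACGTG matches and 1 GCGTG match. In the 39 promoters, GGGCGG was found in 35 (89.7%), beside 45% of all 35116 promoters and 64.8% of the 16494 promoters of genes tested. CCAAT was found in 25 (64.1%), beside 34.6% of all promoters and 34.6% of those of genes tested. ACGTG or GCGTG was found in 33 (84.6%), beside 48.4% and 60%. The sterol element form was found once, in the promoter of SREBF2 as TCACCCCAC, beside 1.13% of all promoters and 1.05% of those of genes tested. Genes that rose and genes that fell both carried GGGCGG, and a match describes the letters in this window only.

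Of the 4 genes that supply acetyl-CoA and build fatty acids 3 fell and 1 rose, with a median log2 fold change of -1.05. The shares of all genes tested were 31.2% lower and 28.5% higher. FASN (ENSG00000169710.9, chr17:82078338-82098294), the fatty acid synthase, was read at 821, 978 and 793 CPM in VC and at 304, 290 and 323 CPM in VHL-KO samples. In VC cells it had the most reads of the 32 genes, and the lowest VC sample was more than double the highest VHL-KO sample (log2 fold change -1.50, SE 0.09, edgeR adjusted p = 1.67e-12). ACLY (ENSG00000131473.17, chr17:41866917-41930542), which splits citrate into acetyl-CoA and oxaloacetate, was read at 493, 568 and 531 CPM in VC and at 223, 238 and 277 CPM in VHL-KO samples. Here too the groups did not overlap (log2 fold change -1.11, SE 0.10, edgeR adjusted p = 4.11e-10). ACACA, the acetyl-CoA carboxylase that makes malonyl-CoA, fell just short of 2-fold, from 116 ± 2.11 to 58.6 ± 2.31 CPM (mean ± SD, n = 3 each, log2 fold change -0.98, SE 0.09, edgeR adjusted p = 1.81e-09).

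ACSS2, which makes acetyl-CoA from acetate, was the exception in this group and rose from 63.7 ± 4.49 to 91.7 ± 3.38 CPM (mean ± SD, n = 3 each, log2 fold change 0.52, SE 0.09, edgeR adjusted p = 3.99e-05). Per kilobase, ACSS2 reads were 0.132, 0.117 and 0.110 of ACLY reads in the VC samples and 0.407, 0.369 and 0.340 of them in the VHL-KO samples. ACLY thus stayed ahead of ACSS2 in all 6 samples. The summed level of the 4 genes was 1493, 1730 and 1497 CPM in VC and 675, 675 and 757 CPM in VHL-KO samples.

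Of the 4 genes of desaturation and elongation, 3 fell, beside 31.2% of all genes tested. FADS1 and FADS2, the desaturases of polyunsaturated fatty acids, fell from means of 163 to 102 CPM and of 96.2 to 59.8 CPM (log2 fold changes -0.68 and -0.69). ELOVL6, which lengthens palmitate, fell from 14.4 to 9.64 CPM (log2 fold change -0.58, SE 0.16, edgeR adjusted p = 0.00265), a call that was lost with the GC and length offsets (-0.23, edgeR adjusted p = 0.113). SCD, which makes oleate and palmitoleate, was read at 399, 382 and 399 CPM in VC and at 431, 418 and 457 CPM in VHL-KO samples. The samples did not overlap, but the log2 fold change of 0.15 did not pass the test (SE 0.08, edgeR adjusted p = 0.134), and it was -0.05 when only library size was used and 0.26 with upper quartile factors (edgeR adjusted p = 0.0162). With the GC and length offsets SCD was called higher (0.28, edgeR adjusted p = 0.000112).

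**Figure D4:**
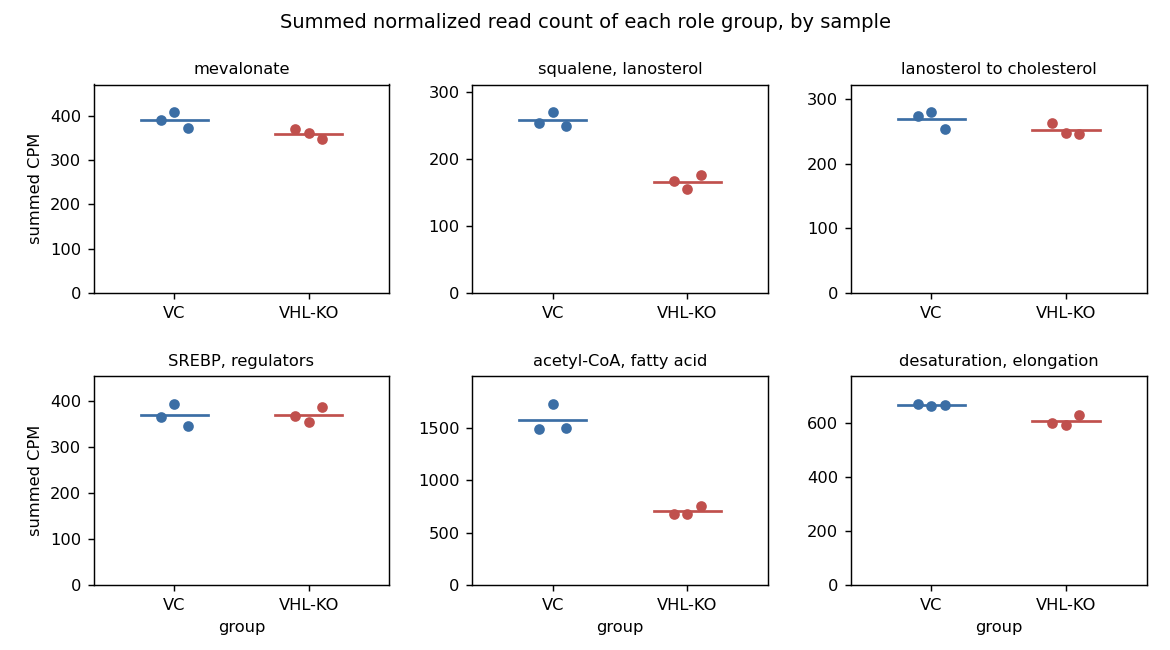
Summed CPM of each of the 6 role groups in the 3 VC and 3 VHL-KO samples, with a line at each group mean. The acetyl-CoA and fatty acid group drops from between 1493 and 1730 CPM to between 675 and 757 CPM, while the SREBP group spans 346 to 395 CPM in VC and 355 to 387 CPM in VHL-KO samples.

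Genes near these routes were taken from 5 lists, whose counts stand beside the 31.2% lower and 28.5% higher of all genes tested. Of 10 genes of SREBP processing and sterol sensing 7 fell and 0 rose, with a median log2 fold change of -0.68. With the GC and length offsets 7 of them fell and 2 rose. MBTPS2, the site-2 protease that frees SREBPs in the Golgi, fell from a mean of 19.4 to 6.18 CPM (log2 fold change -1.66, SE 0.17, edgeR adjusted p = 6.82e-09). SEC23A, a coat protein of the vesicles that leave the endoplasmic reticulum, fell from 24.7 to 7.88 CPM (log2 fold change -1.66). PAQR3, a Golgi anchor of SCAP, fell from 5.73 to 1.70 CPM (log2 fold change -1.79), with 45.5% of its exonic bases in another gene on the opposite strand. Its VHL-KO samples had only 17, 67 and 29 reads, and the fall moved to -1.35 if VHL-KO replicate 1 was left out and to -2.55 if VHL-KO replicate 2 was left out.

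Of 10 genes of the isoprenoid branch, 4 fell and 2 rose, with a median of -0.23 (0.04 with the GC and length offsets). PDSS1, a subunit of the synthase for the coenzyme Q side chain, fell from 16.2 to 3.63 CPM (log2 fold change -2.15, SE 0.17, edgeR adjusted p = 7.27e-11), and NUS1, a subunit of the dolichol synthase, from 26.0 to 8.80 CPM (log2 fold change -1.57). GGPS1, which makes geranylgeranyl diphosphate, rose from 7.26 to 13.1 CPM (log2 fold change 0.84), with 41.0% of its exonic bases in other genes. Of 13 genes of LXR factors, sterol efflux, transport and esterification, 12 were tested, 4 rose and 4 fell, with a median of 0.19. NR1H3, which encodes the oxysterol receptor LXRα, rose from 10.2 to 21.3 CPM (log2 fold change 1.06, SE 0.14, edgeR adjusted p = 7.86e-07). TMEM97, an NPC1-binding protein, fell from 49.2 to 22.5 CPM (log2 fold change -1.13), and OSBP, which exchanges sterol at Golgi contacts, from 63.4 to 35.6 CPM (log2 fold change -0.84). ABCG1 was not tested.

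Of 21 other genes of fatty acid synthesis, elongation and desaturation, 20 were tested, 10 fell and 3 rose, with a median of -0.41. ELOVL2, an elongase of polyunsaturated fatty acids, fell from 6.46 to 1.27 CPM (log2 fold change -2.31), and HACD2, a dehydratase of the elongation cycle, from 19.9 to 6.75 CPM (log2 fold change -1.56). ACACB, the carboxylase of the mitochondrial surface whose malonyl-CoA restrains fatty acid import, rose from 2.56 to 10.2 CPM (log2 fold change 1.99, SE 0.18, edgeR adjusted p = 1.07e-09). It moved against ACACA, and per kilobase the ratio of ACACB to ACACA was 0.0187, 0.0225 and 0.0183 in the VC samples and 0.153, 0.151 and 0.163 in the VHL-KO samples. Of 10 acyl-CoA synthetases and enzymes of glycerolipid entry, 9 were tested, 4 fell and 3 rose, with a median of -0.26. ACSL3 and ACSL4, which activate fatty acids, fell from means of 65.1 to 21.7 CPM and of 37.9 to 19.4 CPM (log2 fold changes -1.58 and -0.97). DGAT2, which makes triglycerides, rose from 4.27 to 9.67 CPM (log2 fold change 1.18, SE 0.17, edgeR adjusted p = 2.3e-06).

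Fold changes of all genes followed the GC content of their exons, and values of the 32 genes were therefore read beside that trend. The median log2 value was -0.48 for the 2461 genes with a GC content from 35 to 40% and 0.51 for the 1634 genes from 60 to 65%. Its cause was not tested. FASN, at 65.2% GC, fell against the trend, and INSIG2, at 37.5% GC, rose against it. With offsets for GC content and length in each library, 9 of the 32 genes were called higher and 17 lower. Beside them, 4949 of the 17401 genes tested were called higher and 5518 lower, with a median log2 fold change of -0.02. FASN was then at -1.91, ACLY at -1.12, ACAT2 at -1.20, CYP51A1 at -2.10, SQLE at -1.05, TM7SF2 at 2.55 and INSIG2 at 2.43, whereas HMGCS1 was at -0.80. PMVK was still called higher (edgeR adjusted p = 0.00612). MSMO1 rose further with them, at 0.64 (edgeR adjusted p = 7.49e-07). The calls on MVD, IDI1, ELOVL6 and SREBF2 were lost. SREBF1, SCAP and NSDHL were called lower, and HSD17B7, SC5D, STARD4 and SCD were called higher, between 0.28 and 0.48. In the neighbouring lists, the median of the isoprenoid branch turned to 0.04 with the offsets, with 3 genes higher and 4 lower. The genes of SREBP processing had 7 lower and 2 higher, at a median of -0.53. ACSL3 was then at -1.16 and ACSL4 at -0.52, both GC-poor genes. Smaller falls were also seen for MBTPS2 (-1.21), SEC23A (-1.20), PAQR3 (-1.36), NUS1 (-1.08), HACD2 (-1.16) and ELOVL2 (-1.88), at 36.5 to 41.5% GC. PDSS1 stayed at -2.15, TMEM97 was at -1.06 and OSBP at -0.74. Of the named genes that rose, GGPS1 was at 1.10, NR1H3 at 0.88, ACACB at 1.97 and DGAT2 at 1.10.

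**Figure D5:**
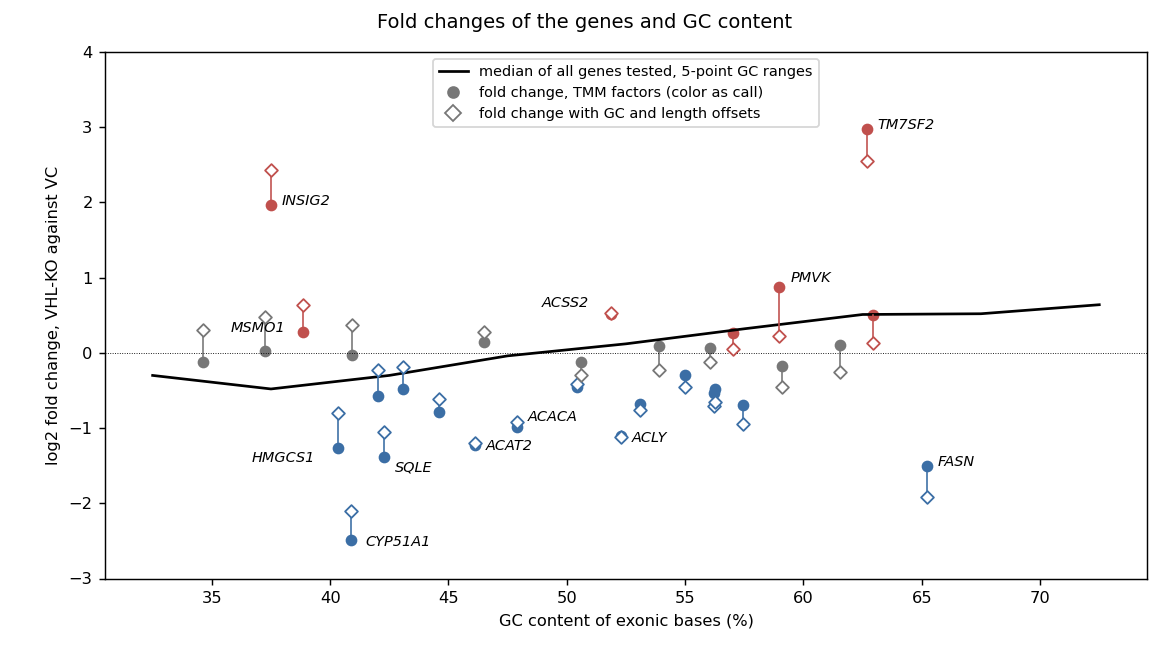
Log2 fold change against the GC content of exonic bases (%) for the 32 genes, with filled points for the fit with TMM factors, open diamonds for the fit with GC and length offsets and a line at the median of all genes tested in GC ranges 5 points wide. TM7SF2 and INSIG2 lie above the line and FASN, CYP51A1, SQLE, ACLY and ACAT2 lie under it with either fit.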

How the data were processed

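Samples were grouped by the genotype in their labels, 3 VC and 3 VHL-KO. The authors trimmed reads with TrimGalore and Cutadapt, aligned them with STAR to GRCh38.p13, kept reads with a single location and counted them per gene with HTSeq, and deposited the raw count of each gene in each sample. Versions, annotation release, counting mode and strand use are not given in the sources used here. Genes that reached 10 reads in some sample, 17401 of 60708, were tested with edgeR 4.0.16 in R 4.3.3 (TMM factors, quasi-likelihood F test, two-sided, Benjamini-Hochberg adjustment over all genes tested, threshold 0.05). Standard errors are the absolute log2 fold change divided by the square root of F. CPM values divide counts by the TMM-scaled library size. The test was checked on simulated data. A gene at 0 could be present at up to 3 counts, which is between 0.0790 and 0.141 CPM, for counting error only. Pairs of replicates of a group varied beyond Poisson noise, at a chi-square of 6.43 to 35.3 for each degree of freedom.

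Positions, lengths, GC contents and overlaps came from GENCODE release 44 on GRCh38. Plots used Python 3.11.15 and matplotlib 3.10.9. Values in each sample are given for VHL, for members called at least 2-fold and for SREBF1, SREBF2, SCAP, INSIG1 and INSIG2. Of each context list the 3 called genes with the largest change and a mean of at least 100 normalized counts are named, and of the HIF targets those called at least 2-fold. Values in each sample of SCD and LBR and the gene pairs were added after the values were seen. The members and lists were chosen with earlier results of these data known. Alternatives were DESeq2 1.42.0, scaling by upper quartile, by relative log expression or by library size alone, 2 other filters, each sample left out, the replicate block, and offsets that remove each library's trend with GC content and length (natural splines, 5 degrees of freedom), and with it any biology tied to GC content.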

Additional observations from a re-analysis of the deposited data

How the results depend on the processing

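Of the 23 called genes among the 32, 17 kept their direction and call under all 15 alternatives, among them every gene changed at least 2-fold, and none of the 23 changed direction. Over all alternatives 5 to 9 genes were called higher and 15 to 19 lower, with 5 to 7 falling and 2 rising at least 2-fold. The median log2 fold change of the tested members, -0.24, was -0.13 with upper quartile factors and -0.43 with library size alone. With each sample left out it lay between -0.30 and -0.21. Sign changes concerned genes that did not pass the test at first, and their cause was not tested. With library size alone MVK was at -0.12, EBP at -0.11, SC5D at -0.17, SREBF1 at -0.09 and SCD at -0.05. With the offsets MVK was at -0.12, HSD17B7 at 0.37, EBP at -0.23, SREBF1 at -0.25 and STARD4 at 0.31. HSD17B7 was at 0.08 with upper quartile factors and 0.00 under the filter of 10 reads in every sample, and SC5D was at -0.02 without a filter. With samples left out, MVK ranged from 0.00 to 0.19, HSD17B7 from -0.15 to 0.08, EBP from -0.03 to 0.19, SC5D from -0.15 to 0.31 and STARD4 from -0.26 to 0.01.

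The replicate block, which treats samples with the same number as paired, changed no call among the 32 genes, with 7 higher and 16 lower. Together with the offsets it gave 9 higher and 19 lower, called IDI1 and EBP lower (-0.20 and -0.23), and put MVK at -0.13, HSD17B7 at 0.36, SREBF1 at -0.25 and STARD4 at 0.31. Deviations of samples with the same number had correlations of 0.0627, -0.0004 and 0.0283, so the numbers were not taken as pairs. Depth limits CYP51A1 most, with as few as 17 counts in a sample.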

Other observations

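Of 17 annotated pseudogene copies of the 32 genes, 10 had no reads in any sample. HSD17B7P2 had 11, 15 and 22 reads in the VC samples, against 25, 38 and 25 reads in those of VHL-KO cells. HSD17B7 itself had means of 9.73 CPM in VC and 9.54 CPM in VHL-KO cells (log2 fold change -0.03). CYP51A1P3 had between 1 and 5 counts in every sample. Among kidney epithelial markers, CDH16 and LHX1 were picked after their values were seen. CDH16 rose from a mean of 6.76 to 72.2 CPM (log2 fold change 3.42) and LHX1 fell from 55.3 to 17.4 CPM (log2 fold change -1.67).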
